A study of Apis mellifera with 36 samples.

Results

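The comparison concerned gene expression in the brains of honey bee workers (Apis mellifera) that carried little deformed wing virus (DWV), an RNA virus that infects bees and is spread between them by a parasitic mite and with food. Bees were taken as low in virus where the labels gave fewer than 1000 DWV reads per 1000000 total reads (RPM). This held for 20 of the 36 bees sequenced, of which 5 came from colony 5 and 15 from colony 6. The colony 5 bees were 4 nurses and 1 guard. The colony 6 bees were 6 nurses, 6 unresponsive bees and 3 guards. Low virus unresponsive bees came from colony 6 alone. The low virus bee nearest to the limit, Nurse 19 of colony 5, had 63.9 RPM, and the nearest bee beyond it, Guard 237 of colony 6, had 6673 RPM, so no bee lay between those values.

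Every library held RNA from 1 worker aged 7 days, and the dissected upper midbrain was mostly mushroom bodies with central brain. The colonies, numbered 5 (R22) and 6 (R23) in the labels, were each headed by a queen inseminated by 1 drone. Bees lived from emergence in laboratory dishes of 10. Guards had attacked an intruder bee, nurses had tended a queen larva, and unresponsive bees had shown no overt social response, in repeated assays of 5 minutes. No allele, drug or infection was set by the experimenters, and all groups shared this rearing. Each colony was 1 family, so family, rearing history and handling of a colony cannot be told apart.

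A honey bee drone is haploid, so daughters of a single mating all receive the same paternal chromosomes and differ among themselves only in what they inherit from the queen. Differences between such families therefore combine fixed paternal differences with maternal alleles that may be carried by all, some or none of the sisters. Mushroom bodies are paired brain centres for learning, memory and the joining of several senses. In whole tissue, fewer cells of a type and less RNA per cell cannot be told apart.

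The 20 libraries held 16.6 to 25.8 M (mega) counts over genes, with a median of 19.3 M, and the other 16 held 16.2 to 27.5 M. Within the low virus bees, load was not equal between colonies, with a median of 20.1 RPM (range 9.99 to 63.9) in colony 5 and 6.26 RPM (range 2.60 to 63.2) in colony 6. Among 9 measures of library quality, none differed between the colonies past an adjusted p of 0.05 in an exact two-sided permutation within behavioural type. The lowest p was 0.0536 (0.482 adjusted over the 9 measures), for the number of genes with at least 1 count per 1000000 counts (CPM). That number was 10299 ± 84.5 in colony 5 (SD, n = 5) and 10227 ± 34.5 in colony 6 (SD, n = 15). For the same measure, permutation without regard to type gave p = 0.0117 (0.105 adjusted), and permutation in nurses only gave p = 0.0238 (0.214 adjusted). Reads mapped to the bee genome made up 85.6% ± 0.703 of the total in colony 5 and 85.0% ± 1.25 in colony 6. No pair of libraries was identical or agreed within sampling noise. The tissue could not be checked against marker genes, because the files give IDs without gene names, and none of the 15314 IDs (0 matches) was in the gene table used here. Only IDs are printed for the same reason, and nothing is said of gene function.

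The first question was whether the families differed where virus was low. They did, in many genes and mostly by little. Of 11113 genes tested, 1529 (13.8%) differed between the colonies past an adjusted p of 0.05 in edgeR's quasi-likelihood test with behavioural type as a term. Of these, 773 (6.96% of genes tested) were higher and 756 (6.8%) were lower in colony 6. Before adjustment, 3084 genes had p under 0.05. The 6 low virus unresponsive bees, all of colony 6, entered the spread and the type term but not the colony term. The colony term therefore rests on 4 nurses and 1 guard of colony 5 against 6 nurses and 3 guards of colony 6. Without Guard 35, the single low virus guard of colony 5, 860 genes passed. Without the 9 colony 6 bees of title numbers 205, 210 and 222, 708 did, and in nurses alone 838 did. Those 9 bees included every low virus guard of colony 6, so the count without them rests on nurses. It also used fewer colony 6 nurses than the count in nurses alone, and the part of title number was not tested. The median size of the difference was 0.28 on the log2 scale among the genes past the threshold and 0.11 among all genes tested. Of the 1529, 1157 (75.7%) lay within 1.5-fold. Differences past 2-fold were seen in 200 genes, with colony 6 above in 92 and below in 108, and past 4-fold in 57, with colony 6 above in 26 and below in 31.

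The genes past the threshold together held 16.2% of all counts in the mean low virus bee. Those higher in colony 6 took 8.42% of counts there and 7.02% in colony 5. Those lower in colony 6 took 7.71% there and 9.22% in colony 5. The shares thus moved by less than 2 percentage points in either direction.

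How often genes passed, and by how much they differed, moved in opposite ways with the level of the gene. Among genes with a mean under 1 CPM, 65 of 773 (8.41%) passed, and their median difference was 1.36 on the log2 scale. Among genes over 100 CPM, 467 of 2471 (18.9%) passed, with a median difference of 0.20. Between these, the share passing was 11% of 1334 genes at 1 to 4 CPM, 11.8% of 2113 at 4 to 20 CPM and 13.6% of 4422 at 20 to 100 CPM. Differences of more than 2-fold were concentrated among rare transcripts: they made up 55 of the 65 passing genes under 1 CPM, 82 of 147 at 1 to 4 CPM, 48 of 250 at 4 to 20 CPM, 12 of 600 at 20 to 100 CPM and 3 of 467 above. The direction also varied by level, since below 20 CPM more of the passing genes were lower in colony 6 (44 of 65, 82 of 147 and 142 of 250), while at 20 to 100 CPM more were higher (338 of 600). Small differences in rare genes could not pass at this depth, so the low share passing there does not show that fewer of them differ.

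**Figure D1:**
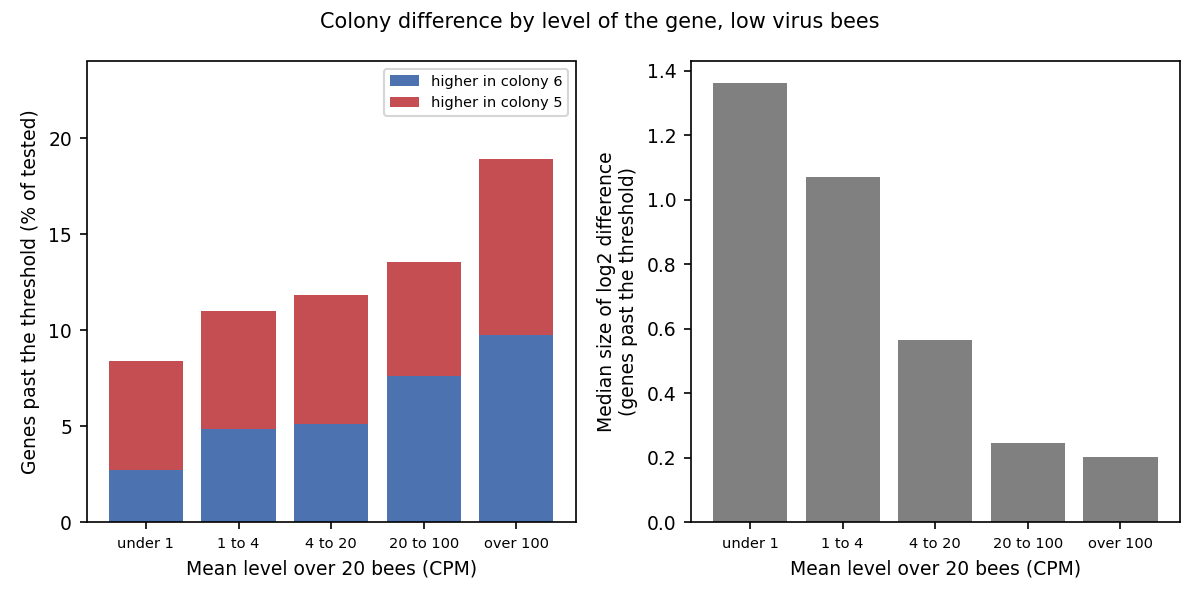
Genes past the adjusted threshold as a percentage of genes tested (left, stacked by the colony with the higher level) and the median size of their log2 difference (right), by mean CPM over the 20 low virus bees. The share passing runs from 8.41% in the lowest class to 18.9% in the highest, while the median difference runs from 1.36 down to 0.20.

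Among genes past the threshold with no overlap between colonies and a mean of at least 4 CPM in the higher one, the 2 with the greatest difference in each direction ranged from a several-fold difference to near presence or absence. GB41278 was at 0 counts in Nurse 19, Nurse 32 and Nurse 40 of colony 5 and at 1 count in Nurse 35 and Guard 35. In colony 6 it ran from 7.05 to 12.4 CPM (median 10.5), with a mean of 10.2 ± 1.58 CPM (SD, n = 15). The groups did not overlap. The ratio of the pooled levels was 511, with a 95% interval from counting error of 141 to 4219 because it rests on 2 counts in colony 5, and the adjusted p was 5.29e-14 by edgeR.

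GB40288 differed less completely, being detected in all 20 bees. Its levels in colony 5 were 3.49 CPM in Nurse 19, 3.51 in Nurse 32, 3.45 in Nurse 35, 3.09 in Nurse 40 and 2.14 in Guard 35. The colony 6 bees ran from 12.6 CPM in Unresponsive 222 to 32.4 CPM in Nurse 210, with a median of 25.3 CPM. Every colony 6 bee thus stood above every colony 5 bee, and the means were 23.3 ± 6.12 CPM (SD, n = 15) and 3.14 ± 0.585 CPM (SD, n = 5). The fitted fold difference, with type as a term, was 7.99 (95% interval 5.73 to 11.1, adjusted p = 3.11e-08 by edgeR).

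GB49219 was abundant in colony 5, at 116 CPM in Nurse 19, 134 in Nurse 32, 126 in Nurse 35, 127 in Nurse 40 and 133 in Guard 35. In colony 6 it reached at most 0.394 CPM, in Unresponsive 230, with 25 counts over all 15 bees. Its pooled level was 1513 times higher in colony 5 (95% interval from counting error 1024 to 2338; adjusted p = 9.43e-15 by edgeR). All 5 low virus bees of colony 5 had a high level, but not all of their sisters did: of the 13 high virus bees of colony 5, 7 stood at 120 to 136 CPM and 6 at no more than 0.311 CPM.

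GB42343 stood at 5.93, 6.97, 5.96 and 7.67 CPM in colony 5 nurses 19, 32, 35 and 40 and at 4.81 CPM in Guard 35. In colony 6 it was at 0 counts in 14 of 15 bees and at 2 counts in Guard 222. The pooled level was 935 times higher in colony 5, with a wide counting interval of 258 to 7736, and the adjusted p was 1.09e-09 by edgeR. Unlike GB49219, it was found in all 13 high virus bees of colony 5 (5.16 to 10.2 CPM) and at 0 counts in all 3 high virus bees of colony 6.

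With at most 3 counts in every bee of one colony and at least 1 CPM in every bee of the other, 3 genes met a strict description of presence by family, and all 3 met it again in the high virus bees. They were GB41278, present in colony 6, and GB42343 and GB49876, present in colony 5, the last named after its values were seen and at a mean of 3.56 CPM in colony 5.

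**Figure D2:**
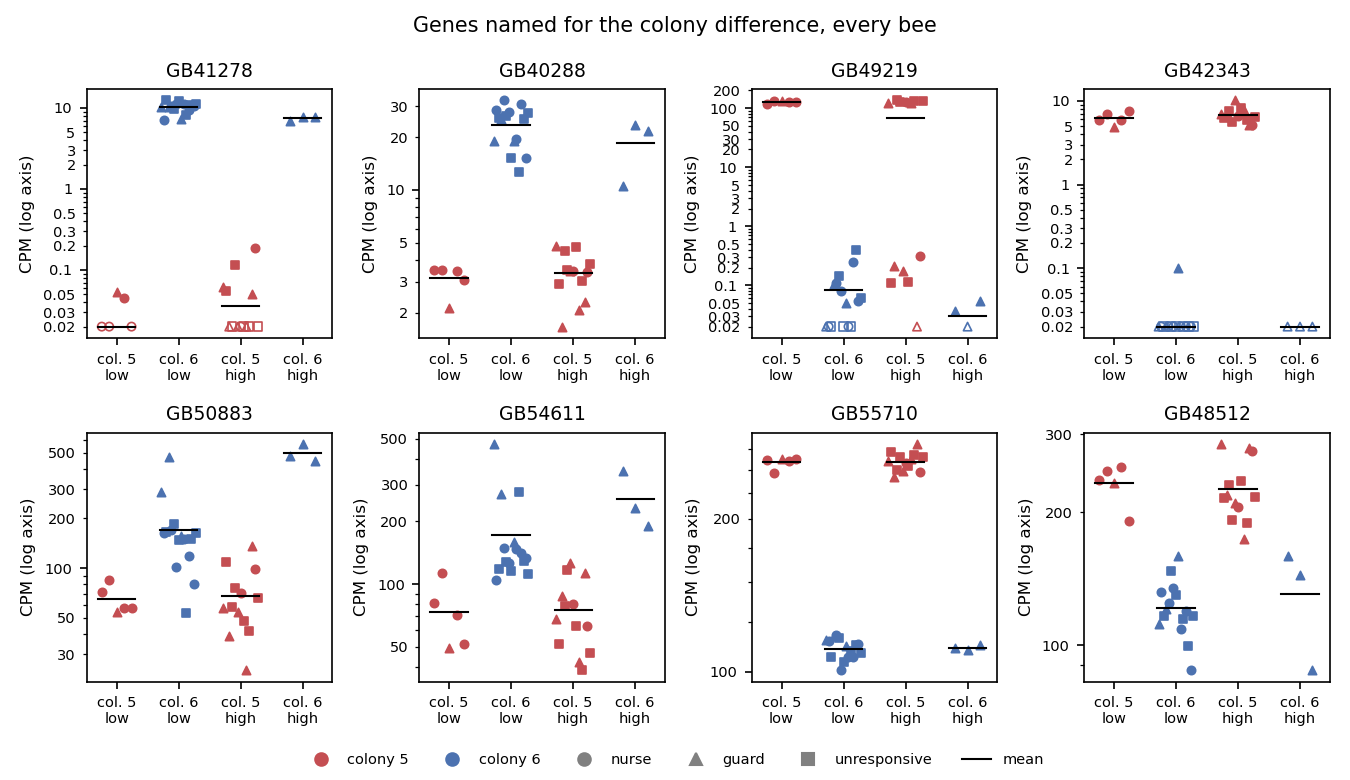
CPM of each bee on a log axis for the 8 genes named for the low virus comparison, by colony and virus range, with black lines for group means; open symbols lie under 0.02 CPM and are drawn at 0.02. In the low virus groups, GB41278 and GB42343 each stand at 0 to 2 counts in one colony, and GB50883 and GB54611 overlap between colonies.

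Among genes with a mean of at least 100 CPM, the greatest differences were near 2-fold, and they were of different kinds. GB55710 stood at 262, 246, 260 and 263 CPM in colony 5 nurses 19, 32, 35 and 40, and at 262 CPM in Guard 35. Colony 6 bees had 101 to 118 CPM, with a median of 112 CPM. The groups lay far apart relative to their spread, at 259 ± 7.17 CPM (SD, n = 5) and 111 ± 5.21 CPM (SD, n = 15), and the level in colony 6 was 2.33-fold lower (95% interval 2.20 to 2.46; adjusted p = 3.42e-15 by edgeR), the lowest adjusted p of the comparison.

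GB48512 stood at 237, 247, 253 and 191 CPM in the same nurses and at 233 CPM in Guard 35, against 88.0 to 159 CPM in colony 6 (median 119). The groups again did not overlap, and the level in colony 6 was 1.92-fold lower (95% interval 1.65 to 2.24; adjusted p = 6.36e-06 by edgeR).

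The 2 abundant genes named as higher in colony 6 varied far more among sisters than GB55710 and GB48512 did. GB50883 stood at 71.2, 84.7, 57.0 and 57.5 CPM in colony 5 nurses 19, 32, 35 and 40, and at 54.4 CPM in Guard 35. In colony 6 it ran from 53.6 CPM in Unresponsive 222 to 473 CPM in Guard 210, with a median of 157 CPM, so the groups overlapped. By type, colony 6 means were 306 ± 159 CPM in guards (SD, n = 3), 130.3 ± 35.8 CPM in nurses (SD, n = 6) and 144 ± 46.1 CPM in unresponsive bees (SD, n = 6), against 67.6 ± 13.1 CPM in colony 5 nurses (SD, n = 4). The test of whether the family difference differed between nurses and guards did not pass (adjusted p = 0.702 by edgeR). With type as a term, the fitted level of GB50883 was 2.38-fold higher in colony 6 (95% interval 1.43 to 3.94, adjusted p = 0.0233 by edgeR). However, the adjusted p was 0.107 without Guard 35 and 0.0534 without Nurse 35 of colony 5. The difference also missed the threshold without the 9 colony 6 bees of title numbers 205, 210 and 222, which leaves no low virus guard of colony 6.

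GB54611 ran from 49.2 to 113 CPM in colony 5 (mean 73.1 ± 26.0, SD, n = 5) and from 104 to 472 CPM in colony 6 (mean 172 ± 98.2, SD, n = 15), with Guard 205 highest. Here too colony 6 guards had the highest mean, 300.5 ± 159 CPM (SD, n = 3), against 133 ± 16.9 CPM for its nurses and 147 ± 65.0 CPM for its unresponsive bees (SD, n = 6 each), and the nurse and guard test did not pass (adjusted p = 0.605 by edgeR). Its fitted difference of 2.14-fold, with type as a term, was close to the threshold (adjusted p = 0.0440 by edgeR). The difference missed the threshold under 17 of 32 other settings, with adjusted p up to 0.170 without Guard 35.

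Complete separation of the families was less common than a difference in means. In 400 genes (3.6% of those tested) the lowest bee of one colony stood above the highest of the other. In 177 of these (1.59%) colony 6 was higher, and in 223 (2.01%) colony 5 was. Of these, 174 and 219 were also past the threshold. Separation did not need a great difference: the median size was 0.42 on the log2 scale in the 177 genes and 0.48 in the 223.

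The same genes were then examined in the 16 high virus bees, which the first comparison did not use. There, 75 of the 177 (42.4%) and 98 of the 223 (43.9%) were again separated in the same direction, and 0 in either set were separated in the opposite one. Of all genes, 2.49% and 2.8% were separated in these directions in high virus bees.

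Across all genes, the leading axis of variation among the 20 low virus bees separated the families. The first principal component of log2 CPM over all tested genes held 19% of the variance and placed colony 5 at -40.6 to -25.7 and colony 6 at 3.48 to 17.9. The second component held nearly as much, 16.9%, and spread colony 6 from -25.6 to 34.8. Along it, every bee of title numbers 205 and 210 and Guard and Nurse 222 lay above 0, while every bee of title numbers 213, 230 and 237 and Unresponsive 222 lay below. The 3 guards of colony 6 lay above 0, and its nurses and unresponsive bees lay on both sides. Colony 5 was narrower, at -11.5 to 10.9.

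**Figure D3:**
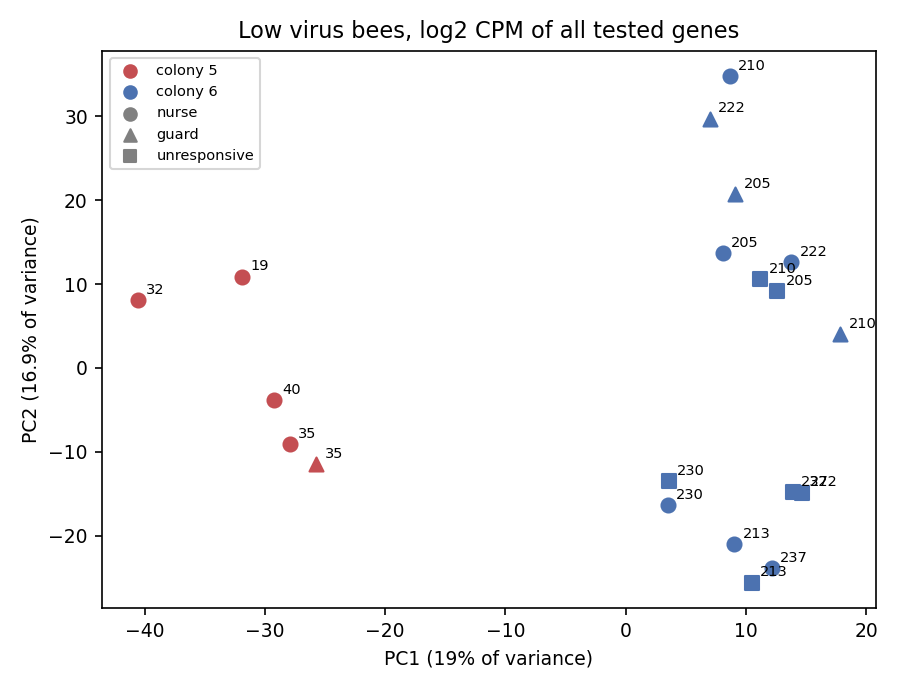
First and second principal components of log2 CPM over all tested genes in the 20 low virus bees, coloured by colony, with symbols for behavioural type and title numbers beside the points. The families do not overlap on the first component, and colony 6 is spread from -25.6 to 34.8 on the second.

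Distances between whole profiles gave the size of the family difference relative to differences among sisters. Between pairs of nurses, the root mean square difference in log2 CPM had a median of 0.474 within colony 5 (6 pairs), 0.556 within colony 6 (15 pairs) and 0.611 across colonies (24 pairs). The ranges overlapped, at 0.356 to 0.582, 0.462 to 0.680 and 0.548 to 0.771. All 20 bees, of any type, were nevertheless nearer by median distance to bees of their own colony than to those of the other. The margin varied, from 0.622 against 0.629 for Guard 222 of colony 6 to 0.408 against 0.583 for Nurse 35 of colony 5. Pairs of colony 6 bees that shared a title number had a median of 0.508 (12 pairs), against 0.542 for other colony 6 pairs (93 pairs).

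Other genes also fell at separate levels among sisters of 1 family. Genes were counted as divided where a gap of at least 3 on the log2 scale separated at least 2 bees on each side, with at least 4 CPM above. In the 5 low virus bees of colony 5, 13 genes were divided in this way, in the 15 of colony 6, 14 were, and 4 were divided in both. Of these, 1 of 13 and 1 of 14 were also past the threshold for the family difference, which 13.8% of all genes tested were. These counts are too small to set the divided genes apart from the rest.

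The second question was whether the families differed in the same genes where virus load was high. In the 16 high virus bees, with 10412 to 28967 RPM in 13 bees of colony 5 and 6673 to 8608 RPM in 3 guards of colony 6, 478 of 11159 genes (4.28%) passed the same test, 229 (2.05%) higher and 249 (2.23%) lower in colony 6. All 3 colony 6 bees were guards, so the family difference was estimated there from 5 guards against 3. The median size among the genes that passed was 0.82 on the log2 scale, against 0.28 in low virus bees. The sets of bees also differed in number, virus load and behavioural types, and the part of each was not tested. Without Guard 230 of colony 6 the count was 264, and without Guard 32 of colony 5 it was 318.

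The direction of difference carried over between the sets of bees, which share no library. Of the 1522 genes past the threshold in low virus bees that were also tested in high virus bees, 1308 (85.9%) differed in the same direction there, against 62.2% of the 9490 genes not past it. Of the 1522, 257 (16.9%) also passed in high virus bees, all in the same direction. They were 54.1% of the 475 genes passing in high virus bees and tested in both. Of those 475, whether or not they passed in low virus bees, 448 (94.3%) had the same direction there and 27 the opposite one. The share with the same direction was 91% of 756 genes lower in colony 6 and 80.9% of 766 genes higher in it.

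The agreement depended on the size of the difference in low virus bees. Of genes under 1.5-fold, 958 of 1157 (82.8%) had the same direction, and their median difference of 0.23 on the log2 scale in low virus bees stood beside one of 0.12 in high virus bees. From 1.5-fold to 2-fold, 162 of 172 (94.2%) had it. Over 2-fold, 188 of 193 (97.4%) had it, with medians of 1.47 in low and 1.43 in high virus bees. Over 4-fold, all 53 had it, and 39 of them passed in high virus bees on their own. The classes were set by the low virus values, and no test was made of the differences between classes.

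**Figure D4:**
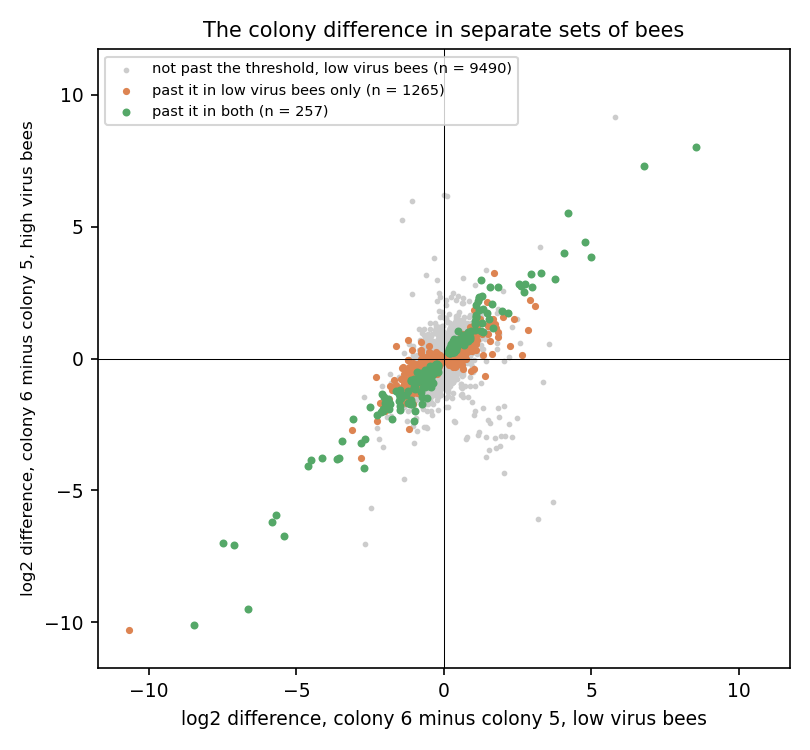
The log2 difference between the colonies (colony 6 minus colony 5) in high virus bees against that in low virus bees, 1 point per gene tested in both. The 257 genes past the threshold in both lie only in the quadrants of equal direction.

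The genes named for the smallest p in high virus bees, 2 per direction, had the same direction in low virus bees. GB41278 was among them, with a colony 6 mean of 7.52 ± 0.477 CPM in high virus guards (SD, n = 3) against 10.2 ± 1.58 CPM in low virus bees (SD, n = 15), and at most 0.187 CPM in any high virus bee of colony 5. GB51439 stood at 1.15, 1.14, 1.70 and 1.11 CPM in the low virus colony 5 nurses 19, 32, 35 and 40, and at 1.12 CPM in Guard 35, against 7.85 to 13.1 CPM in colony 6 (median 10.5). In high virus bees its means were 0.968 ± 0.300 CPM in colony 5 (SD, n = 13) and 10.6 ± 0.954 CPM in colony 6 (SD, n = 3). The log2 difference was 2.97 ± 0.14 (SE) in low and 3.20 ± 0.22 in high virus bees (adjusted p of 1.50e-12 and 5.26e-08 by edgeR).

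GB50971 stood at 118 to 134 CPM in low virus colony 5 bees and at 27.7 to 39.9 CPM in colony 6 bees. In high virus bees the means were 123 ± 5.15 CPM (SD, n = 13) and 39.2 ± 2.81 CPM (SD, n = 3). The log2 differences were -1.88 ± 0.07 (SE) and -1.67 ± 0.06 (adjusted p of 5.29e-14 and 3.41e-11 by edgeR).

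GB46398 stood at 34.2 to 39.6 CPM in low virus colony 5 bees and at 1.25 to 4.06 CPM in colony 6 bees. Its low virus means were 37.0 ± 2.24 CPM (SD, n = 5) and 2.13 ± 0.720 CPM (SD, n = 15), and its high virus means were 41.7 ± 5.73 CPM (SD, n = 13) and 3.12 ± 0.520 CPM (SD, n = 3). The log2 differences were -4.13 ± 0.19 (SE) and -3.76 ± 0.18 (adjusted p of 1.57e-12 and 6.91e-10 by edgeR). Of the genes named for the low virus comparison, GB55710 was the closest in size between sets of bees, at -1.22 ± 0.04 and -1.21 ± 0.06. GB49219, divided among high virus sisters, had a log2 difference of -10.31 ± 4.58 (SE) there and did not pass (adjusted p = 0.282 by edgeR).

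Whether the family difference itself changed with virus range was tested with all 36 libraries. Of 10824 genes, 3 (0.0277%) passed, while 807 had p under 0.05 before adjustment. For 2 of the 3, colony 6 was near or below colony 5 in low virus bees and above it in high virus bees. All high virus bees of colony 6 were guards, and with guards alone in edgeR's model the count was 0, although 803 genes had p under 0.05 before adjustment. The high virus guards of colony 6 were title numbers 213, 230 and 237 and the low virus guards 205, 210 and 222, so that among colony 6 guards virus range and title number cannot be told apart. Low virus bees of these sets of numbers, other than Unresponsive 222, lay on opposite sides of the second principal component. GB49219, divided among high virus sisters, was not among the 10824 genes, because the filter for low counts removed it.

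GB42616 ran from 16.2 to 24.2 CPM in low virus colony 5 bees and from 13.3 to 38.4 CPM in low virus colony 6 bees, with means of 19.3 ± 3.10 (SD, n = 5) and 19.1 ± 6.30 CPM (SD, n = 15). The groups overlapped throughout. In high virus bees it stood at 13.3 to 24.6 CPM in colony 5 (n = 13) and at 44.0, 55.4 and 59.4 CPM in the 3 colony 6 guards. The difference between the log2 differences was 1.54 ± 0.26 (SE; adjusted p = 0.00706 by edgeR).

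GB51174 had means of 181 ± 12.7 CPM in colony 5 and 162 ± 16.1 CPM in colony 6 among low virus bees, where its log2 difference of -0.18 ± 0.07 (SE) did not pass (adjusted p = 0.101 by edgeR). Among high virus bees it stood at 168 to 214 CPM in colony 5 and at 250.0, 272 and 285 CPM in colony 6. The log2 differences differed by 0.61 ± 0.10 (SE; adjusted p = 0.00706 by edgeR).

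GB40736, a rare transcript, went the other way. In low virus bees its level was 0.374 to 0.965 CPM in colony 5 and 1.30 to 2.12 CPM in colony 6, with no overlap. In high virus bees it was 0.525 to 1.58 CPM in colony 5 and 0.472 to 1.14 CPM in colony 6. The log2 differences differed by -1.97 ± 0.37 (SE; adjusted p = 0.0240 by edgeR). GB53084, next by p in that direction, did not pass (-0.41 ± 0.09, adjusted p = 0.114 by edgeR). The count of 3 was 0 without Guard 230 of colony 6 and 42 without Guard 237 of colony 6.

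Behavioural type was considered next. In nurses alone, 4 of colony 5 against 6 of colony 6, 838 of 10988 genes (7.63%) passed, and 754 of these (90%) had the same direction between the guards, 1 against 3, which are other bees. Of all 10988 genes, 65.1% had the same direction in nurses and guards. Among genes past 2-fold in nurses, 148 of 157 (94.3%) did. The direct test of whether the family difference differed between nurses and guards passed for 5 of 11113 genes (0.045%), with 784 at p under 0.05 before adjustment. This test rests on Guard 35, the single low virus guard of colony 5, whose spread was taken to be that of the other groups.

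In each of the 3 genes named there, Guard 35 stood apart from the nurses of its colony, and its level was shared by some high virus sisters. GB46678 was at 108 CPM in Guard 35 and at 1.05, 1.03, 0.941 and 1.11 CPM in colony 5 nurses 19, 32, 35 and 40. The range in colony 6 was 0.314 to 2.17 CPM. Among the 13 high virus bees of colony 5, 7 stood at 93.1 to 114 CPM and 6 at no more than 1.51 CPM, and none of the 18 colony 6 bees exceeded 50 CPM. The log2 difference of the differences was -6.55 ± 0.69 (SE; adjusted p = 9.16e-05 by edgeR).

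GB48847 was at 38.4 CPM in Guard 35 and at 69.9 to 74.6 CPM in the 4 nurses, with 68.9 ± 3.07 CPM in colony 6 (SD, n = 15). Among high virus bees of colony 5, 5 stood at 32.0 to 38.1 CPM and 8 at 61.3 to 76.2 CPM. The difference of the differences was 0.87 ± 0.10 (SE; adjusted p = 9.16e-05 by edgeR).

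GB42575 was at 0 counts in the 4 nurses, at 18 counts (0.962 CPM) in Guard 35, and at 0.480 to 1.48 CPM in colony 6. It was at 0 counts in 6 high virus bees of colony 5 and at 0.713 to 1.58 CPM in 7. It passed with an adjusted p of 0.00568 by edgeR, and its fitted difference of -7.69 depends on the prior count and is no bound, since the nurses were all at 0. The upper level of GB46678 and detection of GB42575 each occurred in 8 of the 18 colony 5 bees, and 5 bees had both. These levels were thus found in nurses, guards and unresponsive bees of colony 5. The other genes that passed were GB55414 (-0.85 on the log2 scale) and GB40607 (-2.91), listed after their values were seen. GB46191, next by p in the positive direction, did not pass (3.62 ± 0.77, adjusted p = 0.217 by edgeR), at levels of 0.107 to 0.948 CPM in the 20 bees.

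**Figure D5:**
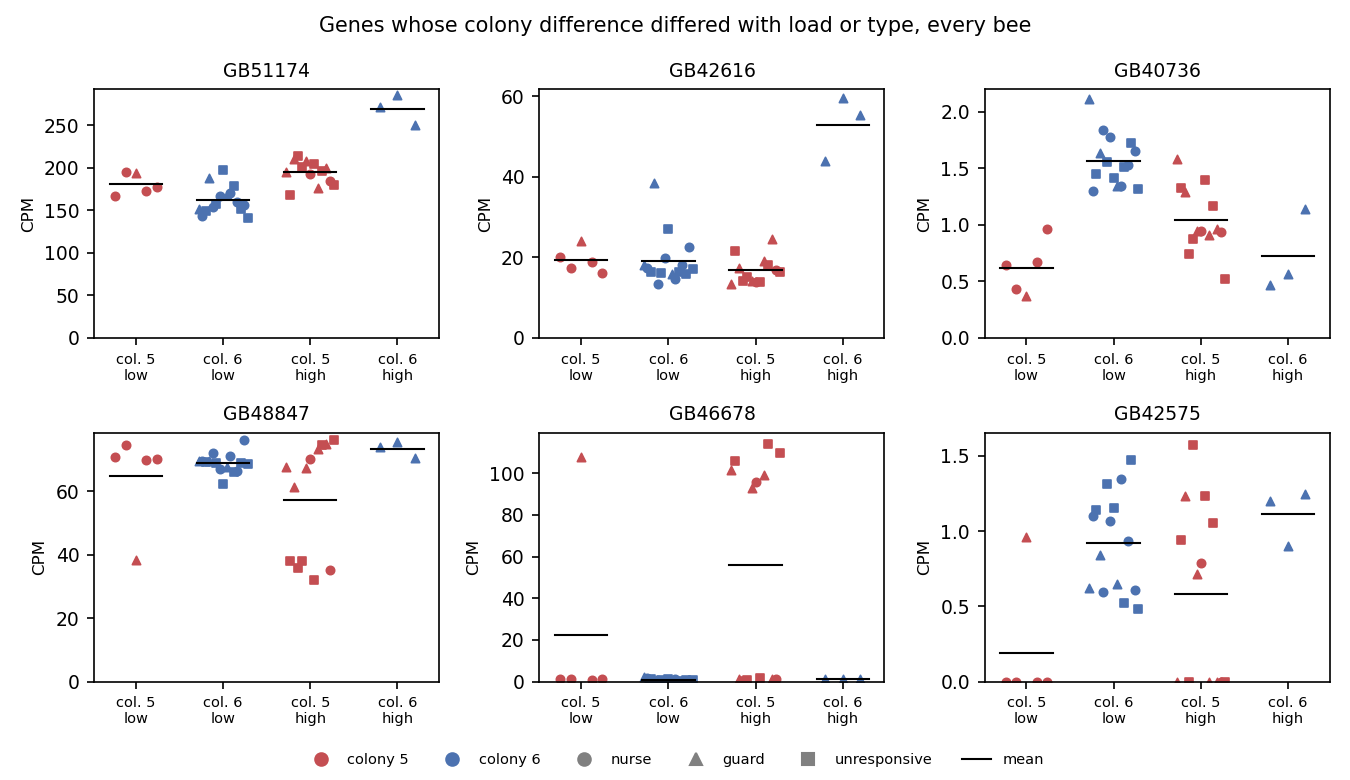
CPM of each bee on a linear axis for genes whose family difference differed with virus range (top row) or between nurses and guards (bottom row), by colony and virus range, with black lines for group means. In the top row the 3 high virus guards of colony 6 stand above all other groups for GB51174 and GB42616, and in the bottom row the colony 5 bees fall at separate levels.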

How the data were processed

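The deposited files hold unnormalized whole-number read counts per gene, 1 file per bee, and the labels give total, genome and DWV reads. Tools named in the submitters' processing notes are TopHat2 2.0.10 with Bowtie2 2.1.0, CASAVA 1.8.2, HTSeq, and SAMtools 0.1.19. The labels name a bee genome assembly, version 4.5, as a mapping target. HTSeq's strand option is not given in the sources used here, so overlapping and antisense genes are uncertain, as are near-identical copies. The 5 summary rows (reads in no gene 28.8% in colony 6 and 29.0% in colony 5 on average over low virus bees) stayed out of the counts over genes, the CPM and the gene tests. They entered the shares of counted reads among the library measures.

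Counts were analysed with R 4.3.3 and edgeR 4.0.16 (filterByExpr by colony, TMM, robust quasi-likelihood, behavioural type and colony as terms, Benjamini-Hochberg threshold 0.05). CPM uses TMM-scaled totals, and log2 CPM a prior count of 2. Fitted log2 differences use edgeR's own default prior count, not that of 2. An SE is the log2 difference divided by the root of F, with a median of 0.0805 and 90% of genes under 0.302. Ratios near 0 carry exact intervals of pooled counts for counting error only. The count model was tested on simulated data. Alternatives used DESeq2 1.42.0 and limma 3.58.1, and figures matplotlib 3.10.9.

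Members and lists were chosen with earlier results of these data known. Genes named for the family difference were those past the threshold without overlap and at least 4 CPM, and those past it with at least 100 CPM, the 2 greatest per direction. For other comparisons they were the 2 per direction with the smallest p. Lists by function and cell type markers were not tested, because no ID matched.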

Additional observations from a re-analysis of the deposited data

Results flagged for a closer look

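Of 84 groups of 4 or 6 bees examined, 11 had a bee apart from the rest. The rule flags about 5% of groups by chance where groups are independent. These groups share bees and related measures, so the 11 cannot be set against that 5%. In colony 5 nurses these were Nurse 35 for GB41278 (0.0448 CPM, which is 1 count against 0 in the others) and for GB51439 (1.70 CPM, the others at most 1.15), Nurse 40 for GB40288 (3.09 CPM, the others at least 3.45) and Nurse 32 for GB55710 (246 CPM, the others at least 260.3). All 4 values lay on colony 5's side of the family difference.

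Unresponsive 222 of colony 6 stood apart for 3 measures: 53.6 CPM for GB50883 (the others at least 148), 279 CPM for GB54611 (the others at most 129) and 83.2% of reads mapped to the bee genome (the others at least 85.2%) with its complement of 16.8% mapped to neither target. That share and its complement count as 2 of the 11. Unresponsive 230 was high for GB49219 (0.394 CPM) and Unresponsive 213 for GB42616 (27.1 CPM). Nurse 213 was the deepest library of its group, at 25765900 counts. The part of these library measures in the gene values was not tested.

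The family difference differed with virus range, by the direct test of edgeR, in 3 genes: GB51174 (0.61 on the log2 scale), GB42616 (1.54) and GB40736 (-1.97). It differed between low virus nurses and guards in 5 genes, among them GB46678 (-6.55), GB48847 (0.87) and GB42575 (-7.69, a fitted value that depends on the prior count). The former test rests on 3 high virus guards of colony 6. The latter rests on 1 guard of colony 5, whose spread was taken to be that of the other groups. GB46678, GB48847 and GB42575 also fell at separate levels among the high virus bees of colony 5. Whether their levels go with type in that colony was not tested.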

How the results depend on the processing

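For the 1529 genes of the low virus comparison, no gene that passed in both the main and another setting changed direction. The count was 838 with nurses alone (735 of them among the 1529) and, in an alternative added after seeing the data, 708 without title numbers 205, 210 and 222 (508 shared). Leaving out 1 bee gave 860 to 1623, with 860 without Guard 35. DESeq2 gave 1883, a log10 DWV load term 1563 and a fit without type 1857. Title numbers are nested in colonies, so they could not enter as a fixed block. With the title number as a replicate block in limma (correlation 0.168), 1298 genes passed, 1267 shared. Bees with the same number had residual correlations of median 0.155 (13 pairs), others -0.118.

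The high virus count of 478 was 754 by DESeq2 and 264 to 540 with 1 bee left out, with 264 without Guard 230 of colony 6 and 318 without Guard 32 of colony 5. The virus range count of 3 was 8 by DESeq2, 0 with guards alone and 0 to 42 with 1 of 8 bees left out. Those 8 were the low virus bees of colony 5 and the high virus guards of colony 6, and no other bee was left out. The nurse and guard count of 5 was 11 by DESeq2 and 4 to 6 with 1 bee left out. For that range only 7 bees were left out in turn, the 4 low virus nurses of colony 5 and the 3 low virus guards of colony 6. These fits were added after seeing the data. Guard 35, on which the nurse and guard test rests, was not among them, so the range cannot show dependence on that bee. The count of 400 separated genes was 406 to 595 with 1 bee left out, an alternative added after seeing the data. Leaving out a bee cannot undo a separation, so this count could only stay or rise and is no check of the 400. With nurses alone, the colony difference in the share of reads in genes turned from 0.0240 to -0.196 percentage points and that in no gene from -0.269 to 0.0527, and neither passed. Among named genes, 17 of 32 settings ended the call of GB54611 and 3 that of GB50883. GB41278, GB40288, GB42343, GB55710 and GB48512 passed in all 32, and GB49219 in all 31 whose genes tested included it. The causes were not tested. Gene levels near 1 CPM rest on about 20 counts a bee, which limits what small differences can pass.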
